A study of Mus musculus with 6 samples.

Results

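The 36 genes described here encode the route by which a cell takes up glucose and turns it into lactate, together with genes that respond to low oxygen through the hypoxia-inducible factor HIF. They were chosen by symbol from general knowledge of the pathway, with earlier results of these data known. All 36 were found among the 24975 genes of the count table: 24 for glucose uptake, glycolytic enzymes, lactate and the switches that steer pyruvate and fructose phosphates, and 12 for the HIF response. The cells were mouse mesoderm at embryonic day 7.5, sorted from embryos that all carried 1 copy of Mesp1-Cre, a recombinase active in the nascent mesoderm. Control embryos (Mesp1-Cre/+;R26-tdTomato/+) carried a red reporter at the R26 locus, and Gli3R embryos (Mesp1-Cre/+;R26-Gli3R-IRES-Venus/+) carried at the same locus Gli3R, a repressor form of a Hedgehog transcription factor, with the yellow-green reporter Venus. Each of 3 litters gave 1 control and 1 Gli3R library of 1000 cells, 6 in all, and the replicate number is that of the litter. Cells of a library came from pooled littermates. The header of the count table states that control cells were sorted on tdTomato and Gli3R cells on Venus, so that Gli3R, the reporter and the sort cannot be told apart. In bulk libraries such as these, fewer cells of a kind and less RNA per cell cannot be told apart either.

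Glycolysis splits glucose into pyruvate in a preparatory phase that spends ATP and a pay-off phase that returns it, and lactate dehydrogenase lets the pathway run without oxygen by turning pyruvate into lactate. HIF is held low in oxygen by prolyl hydroxylases that mark its alpha subunit for destruction; when oxygen is scarce, HIF binds DNA at the core sequence ACGTG or GCGTG and raises glucose transporters, glycolytic enzymes, Vegfa, Bnip3 and its own hydroxylases. The gastrulating mouse embryo develops before a circulation is in place and relies strongly on glycolysis.

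Library totals ran from 5481190 counts (control replicate 1) to 12635151 counts (Gli3R replicate 1), and a single count stood for 0.0791 to 0.182 CPM (counts brought to a common library total after TMM scaling). Control replicate 1 lay apart from the other libraries on the first principal component (-39.9, against -2.25 to 19.3 for the other 5). Gli3, part of which the transgene encodes, stood at 25.7 to 34.3 CPM in control and 38.9 to 50.8 CPM in Gli3R libraries (log2 fold change 0.57 ± 0.15 SE, edgeR quasi-likelihood test, adjusted p = 0.312), and its counts do not separate transgene from endogenous transcripts. All 36 members were expressed enough to be tested. The least counted was Eno2, with 75 counts over all libraries, and Ddit4 had 95.

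Levels of the members spanned a wide range, with 1 major isozyme at most steps. To compare genes, CPM was divided by the length of the longest coding transcript. Eno1 (enolase, 1924 ± 196 CPM per kb in control libraries; SD, n = 3), Ldha (lactate dehydrogenase A, 1897 ± 66.7) and Gapdh (1875 ± 41.1) led, and these 3 did not differ beyond their spread. Pgam1 (phosphoglycerate mutase, 1016 ± 14.6), Aldoa (aldolase A, 859 ± 23.3), Tpi1 (triose phosphate isomerase, 829 ± 78.8) and Pgk1 (phosphoglycerate kinase, 437 ± 28.3) followed, with Aldoa and Tpi1 within their spread. The first HIF response gene in the order was Bnip3 (85.9 ± 6.59 CPM per kb), and the low end held Ddit4, Hk1, Pfkfb4 and Eno2, each under 1.2 CPM per kb in both groups.

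**Figure D1:**
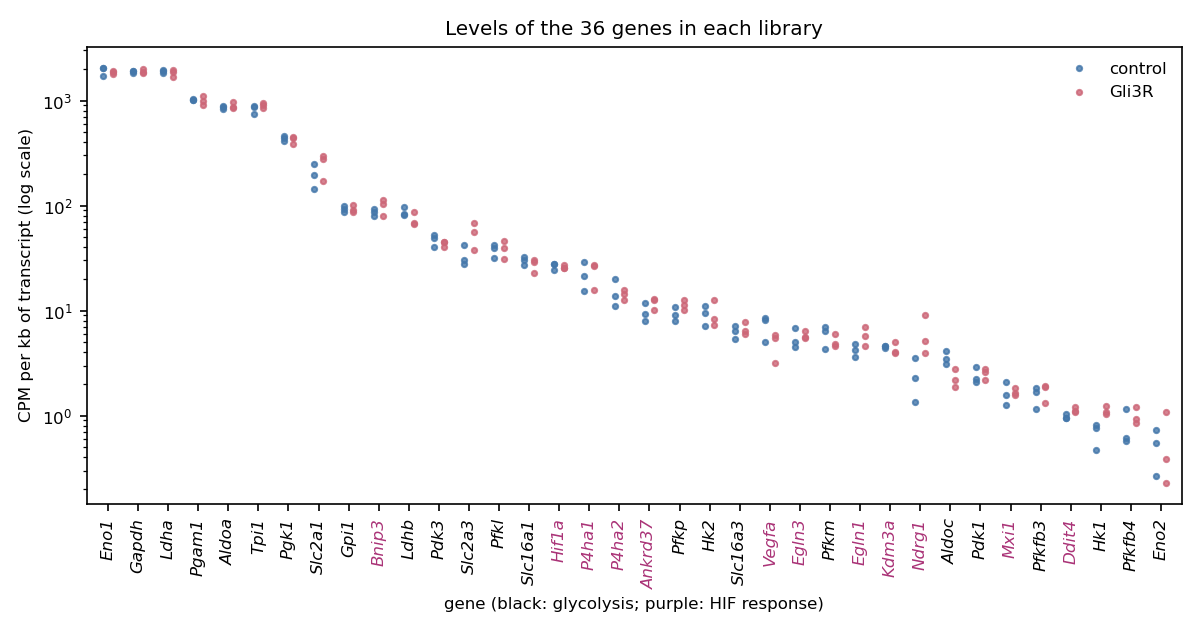
Level of each of the 36 genes in each of the 6 libraries, as CPM per kb of transcript on a log axis, ordered by the mean over all libraries (points: libraries, blue control, red Gli3R; gene names in black for glycolysis, purple for the HIF response). The control and Gli3R points of the 7 leading enzymes lie on each other, and those of Ndrg1 lie apart.

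Within families, Aldoa made up 99.6% of aldolase transcripts per kb in control libraries and Ldha 95.6 ± 0.415% of lactate dehydrogenase. Hk2 made up 92.9 ± 2.47% of the measured hexokinases, Pdk3 95.1 ± 0.744% of Pdk1 and Pdk3, Slc2a1 85.3 ± 2.52% of the measured glucose transporters and Pfkl 71.0 ± 6.34% of the phosphofructokinases (SD, n = 3 each). Egln1 and Egln3, the HIF prolyl hydroxylases among the members, were near equal (43.6 ± 2.14% and 56.4 ± 2.14%). Without division by length the control means were 51.0% and 49.0%, so their order depended on it. The Slc2a3 share ran from 12.4% to 17.4% in control and from 16.7% to 18.6% in Gli3R libraries and was higher with Gli3R in all 3 litters, and the share of Aldoc among aldolases was lower in all 3 (0.356% to 0.471% against 0.214% to 0.332%). These shares were not tested.

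Several of these levels include reads that fit more than 1 gene. In mouse transcripts of a later build, 82.5% of the 50-base words of Gapdh, 72.2% of those of Eno1, 68.0% of Pgk1, 62.4% of Bnip3 and 41.5% of Pgam1 also occur in transcripts of other genes. The table gave Eno1b, a retrogene of Eno1, 256725 counts, or 1.31 times those of Eno1 (1.28 to 1.32 across libraries), and the predicted gene Gm12070, which shares Gapdh sequence, 144327 counts, 1.06 times those of Gapdh. No source used here says whether reads that fit several genes were counted for each, and the levels of these members are therefore uncertain. The change of the copies resembled that of the parent genes in size: -0.05 ± 0.09 for Eno1b and 0.02 ± 0.07 for Gm12070, on the log2 scale. Pfkp also shares 17.1% of its words with its neighbour Pitrm1, and Ankrd37 10.5% with Lrp2bp.

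Upstream sequences are shown for a transporter and a sensor that were higher with Gli3R in every litter, Slc2a1 and Egln1, beside those of 2 abundant enzymes whose log2 fold change lay within 0.2 of 0, Pgk1 and Ldha. Each is the 250 bases before a RefSeq transcription start (GRCm38.p6; the counts were made on another build, and positions serve only to place these sequences), 5′ to 3′ on the gene's strand, with ACGTG and its reverse complement CACGT in capitals. They lie at chr4:119108495-119108744 (plus strand), chr8:124949255-124949504 (minus), chrX:106186850-106187099 (plus) and chr7:46845554-46845803 (plus).
Slc2a1: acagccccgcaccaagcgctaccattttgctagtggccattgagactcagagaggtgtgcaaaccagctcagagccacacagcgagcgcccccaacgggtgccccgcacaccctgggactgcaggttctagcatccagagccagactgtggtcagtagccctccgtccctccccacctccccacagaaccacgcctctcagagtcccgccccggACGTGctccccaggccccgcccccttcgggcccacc
Egln1: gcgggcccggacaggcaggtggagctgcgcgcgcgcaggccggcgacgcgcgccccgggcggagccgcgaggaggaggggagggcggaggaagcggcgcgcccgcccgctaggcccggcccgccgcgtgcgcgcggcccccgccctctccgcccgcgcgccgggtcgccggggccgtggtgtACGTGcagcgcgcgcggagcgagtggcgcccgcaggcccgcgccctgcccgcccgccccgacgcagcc
Pgk1: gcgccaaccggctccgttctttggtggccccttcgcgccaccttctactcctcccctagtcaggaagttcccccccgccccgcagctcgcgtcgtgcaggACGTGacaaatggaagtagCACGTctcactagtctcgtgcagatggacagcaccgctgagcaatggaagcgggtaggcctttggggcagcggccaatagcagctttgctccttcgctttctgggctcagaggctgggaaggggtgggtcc
Ldha: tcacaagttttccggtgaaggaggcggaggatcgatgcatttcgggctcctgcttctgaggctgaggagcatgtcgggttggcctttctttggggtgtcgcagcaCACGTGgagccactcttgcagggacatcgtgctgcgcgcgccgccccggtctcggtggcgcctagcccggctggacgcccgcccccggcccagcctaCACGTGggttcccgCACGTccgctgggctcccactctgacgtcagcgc

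RefSeq windows matched 34 of the 36 members, with 51 windows since some genes have several starts. The members not matched are Ndrg1 and Slc2a3, so the shares below leave out both members that passed in DESeq2. ACGTG on either strand was found in 25 of the 51 (49.0%), against 16.6% of 32851 windows of all genes, and the other HIF core, GCGTG, in 54.9% against 28.2%. A CACGTG holds ACGTG on both strands and was counted on each, as at 2 places in the Ldha window shown; the other Ldha window holds none. ACGTG was in 14 of 35 windows of glycolytic members and in 11 of 16 windows of HIF response members. Among the 4 sequences shown, ACGTG matches numbered 1 in Slc2a1, 1 in Egln1, 2 in Pgk1 and 5 in Ldha. Matches of GCGTG, which are not in capitals, numbered 1 in Slc2a1, 1 in Egln1, 0 in Pgk1 and 0 in Ldha. The order among these 4 did not extend to the other leading enzymes. There, ACGTG and GCGTG matches per window were 0 and 2 in Gapdh, 1 and 2 in Pgam1 and 0 and 0 in Tpi1. Eno1 windows held 0 ACGTG and 1 to 2 GCGTG, and Aldoa windows 0 to 1 ACGTG and 0 GCGTG. The levels of all 4 genes overlapped between the groups. The members were chosen as genes of glycolysis and of the HIF response, so an excess of HIF cores may be built into the list. Windows of a gene can overlap and count a site more than once, as for Aldoa. Windows of all genes include noncoding genes, and base composition was not matched. A match is a description of the letters and no evidence of binding.

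With Gli3R, 0 of the 36 members passed at an adjusted p under 0.05 (Benjamini-Hochberg over 11913 genes, quasi-likelihood test of edgeR), where 0.134% of all genes did. At an unadjusted p under 0.05 there were 6 members, against 6.86% of all genes: Ndrg1, Slc2a3, Hk1 and Egln1 higher and Aldoc and Vegfa lower with Gli3R. With litter as a block, 1 member passed, Ndrg1, where 0.227% of all genes did, and 7 stood at an unadjusted p under 0.05 (8.73% of all genes). DESeq2 called Ndrg1 and Slc2a3, and 0.789% of all genes. Within litters, 12 members were higher with Gli3R in all 3 and 2 were lower in all 3, against 15.0% and 15.3% of all genes tested. Without litter 1, 15 members were higher in both remaining litters and 5 lower, against 28.5% and 29.2%. The median log2 fold change was 0.02 over the 24 glycolytic members and 0.09 over the 12 HIF response members, beside -0.01 over all genes tested. The glycolytic median turned to -0.021 without control replicate 1 and to -0.043 without Gli3R replicate 3.

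**Figure D2:**
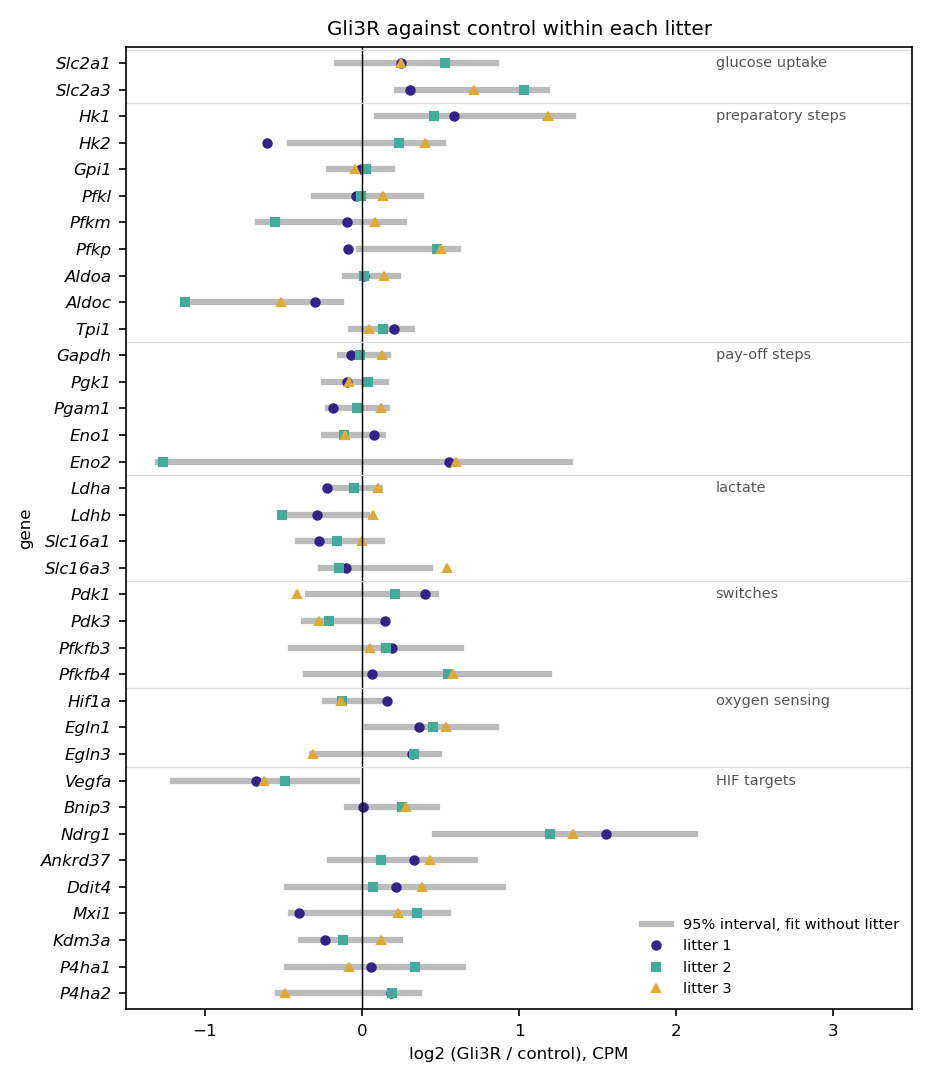
Log2 ratio of Gli3R to control CPM within each litter for the 36 genes, by role (circle litter 1, square litter 2, triangle litter 3; grey bars: 95% interval of the fit without litter). All 3 points lie right of 0 for 12 genes, among them Ndrg1, Slc2a3, Slc2a1 and Egln1, and left of 0 for Aldoc and Vegfa, while the points of Gapdh, Pgk1, Eno1 and Ldha lie close to 0.

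Both glucose transporter genes stood higher with Gli3R in every litter. Slc2a3 (Entrez gene 20527), which encodes the high-affinity transporter GLUT3, measured 121, 109 and 165 CPM in control libraries of litters 1, 2 and 3, against 149, 222 and 269 CPM in the Gli3R libraries of these litters. The lowest Gli3R library lay below the highest control library, so the groups overlapped, but each Gli3R library exceeded the control of its litter. The log2 fold change was 0.70 ± 0.21 (SE; 1.62-fold, 95% interval 0.22 to 1.18) and missed the threshold (edgeR quasi-likelihood test, adjusted p = 0.443; 0.111 with the litter block). It passed in DESeq2 (adjusted p = 0.0340) and without the filter on low counts (0.0257), and its adjusted p over the other alternatives reached 0.998.

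Slc2a1 (20525), which encodes GLUT1, the transporter most cells use for basal uptake, measured 472, 633 and 818 CPM in control libraries of litters 1, 2 and 3, against 560.0, 914 and 974 CPM in the Gli3R libraries. The spread between litters (1.73 times in control) was wider than the difference between groups, whose log2 fold change was 0.35 ± 0.23 (edgeR quasi-likelihood test, adjusted p = 0.916; 0.238 with the litter block). Within litters 1, 2 and 3 the log2 difference was 0.25, 0.53 and 0.25, and the fit without single libraries gave 0.17 (without control replicate 1) to 0.56 (without control replicate 3). With the litter block and without litter 1, both transporters passed (edgeR, adjusted p = 0.0327 for Slc2a1 and 3.23e-05 for Slc2a3), and neither passed with the block and without litter 2 or 3; all of these fits were chosen after seeing the data.

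**Figure D3:**
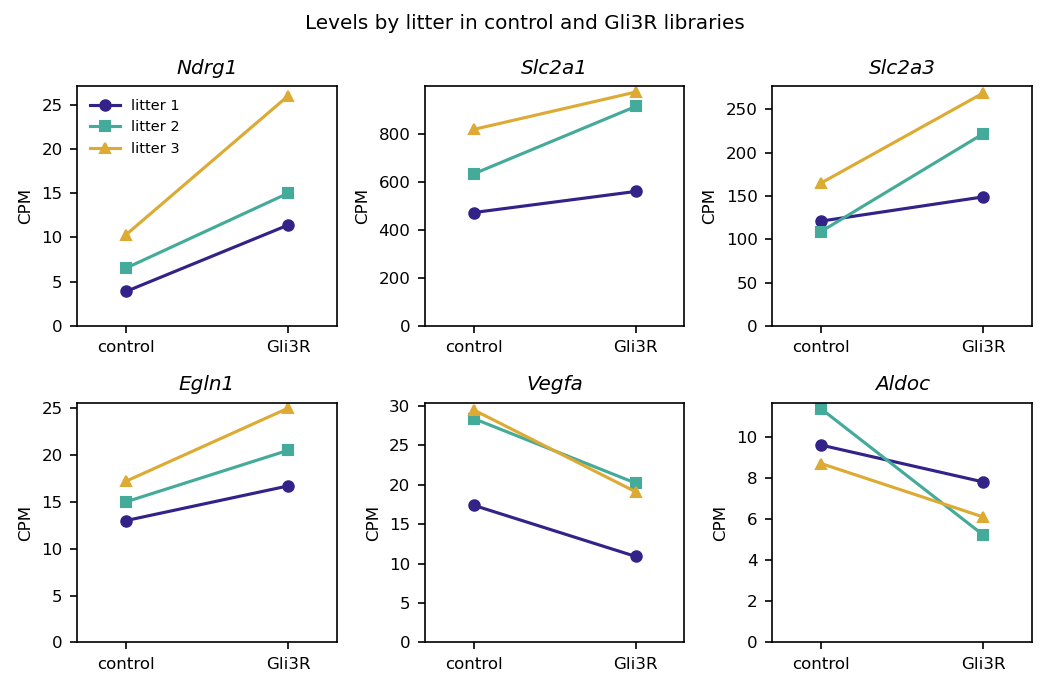
CPM of 6 genes in the control and Gli3R library of each litter (lines join the libraries of a litter; axes start at 0). Lines of Ndrg1, Slc2a1, Slc2a3 and Egln1 go up in all 3 litters and those of Vegfa and Aldoc go down, and litter 1 is lowest in both groups for Ndrg1, Slc2a1, Egln1 and Vegfa.

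The enzymes of the preparatory phase were led by Aldoa and Tpi1, and no member of the 9 passed. Aldoa (11674), which cleaves fructose bisphosphate, stood at 1291, 1342 and 1361 CPM in control and at 1304, 1357 and 1503 CPM in Gli3R replicates 1, 2 and 3. Tpi1 (21991), which interconverts the resulting trioses, stood at 1188, 1381 and 1427 CPM in control and at 1368, 1519 and 1471 CPM in Gli3R replicates. Gpi1 (14751), which isomerises glucose phosphate, stood at 250.0, 288 and 269 CPM in control and 249, 292 and 261 CPM in Gli3R replicates. For these 3 the groups overlapped, and the 95% intervals of the log2 fold change were -0.11 to 0.23, -0.07 to 0.32 and -0.21 to 0.19.

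None of the less abundant isozymes of this phase passed. Aldoc (11676), the aldolase of brain, stood at 9.63, 11.4 and 8.73 CPM in control and at 7.83, 5.24 and 6.12 CPM in Gli3R replicates 1, 2 and 3. Each Gli3R library lay below each control library, as in 6.33% of all genes tested; Aldoc was the 1 member of which this held. Its log2 fold change was -0.62 ± 0.22 (edgeR quasi-likelihood test, adjusted p = 0.548).

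Hk1 (15275), the hexokinase of most adult tissues, was scarce, at 3.52, 3.26 and 2.03 CPM in control and 5.27, 4.48 and 4.59 CPM in Gli3R replicates. Each Gli3R library lay above each control library, which held for 3 members (Hk1, Ndrg1 and Ddit4) and for 5.62% of all genes tested. The log2 fold change of Hk1 was 0.72 ± 0.28 (edgeR quasi-likelihood test, adjusted p = 0.661), from 202 counts in all. Hk2 (15277), the inducible and here dominant hexokinase, ran from 39.3 to 60.7 CPM in control and from 40.0 to 69.2 CPM in Gli3R libraries, with a log2 fold change of 0.03 ± 0.22 and no common direction among litters.

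Phosphofructokinase commits sugar to glycolysis. Pfkp (56421), its platelet form, stood at 44.6, 37.3 and 32.8 CPM in control and at 41.9, 51.8 and 46.5 CPM in Gli3R replicates 1, 2 and 3, a log2 fold change of 0.29 ± 0.14 (edgeR quasi-likelihood test, adjusted p = 0.757). Litter 1 went against the other two, and the overlapping neighbour Pitrm1 stood at -0.27 ± 0.12. The liver form Pfkl (0.03 ± 0.15) and the muscle form Pfkm (-0.20 ± 0.21) overlapped between groups.

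None of the 5 members of the pay-off phase passed, and all 5 lay within 0.2 of 0 on the log2 scale. Gapdh (14433) stood at 2707, 2684 and 2596 CPM in control and at 2576, 2657 and 2839 CPM in Gli3R replicates 1, 2 and 3. Pgk1 (18655), the first ATP-making step, stood at 744, 802 and 847 CPM in control and 698, 823 and 798 CPM in Gli3R replicates. The groups overlapped for both. Pgam1 (18648) stood at 1828, 1777 and 1803 CPM in control and 1607, 1741 and 1962 CPM in Gli3R replicates, and Eno1 (13806) at 3442, 4154 and 4102 CPM against 3626, 3844 and 3815 CPM. The 95% intervals of the log2 fold changes were -0.14 to 0.17 for Gapdh, -0.24 to 0.15 for Pgk1, -0.21 to 0.16 for Pgam1 and -0.24 to 0.14 for Eno1, so that log2 differences beyond 0.25 in either direction lay outside them. Eno2, the neuronal enolase, had too few counts to say (interval -1.30 to 1.32).

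At the lactate end, Ldha (16828), which favours the making of lactate, stood at 3547, 3473 and 3310 CPM in control and at 3042, 3354 and 3552 CPM in Gli3R replicates 1, 2 and 3 (95% interval of the log2 fold change -0.23 to 0.12). Ldhb (16832), the form that favours the reverse reaction, stood at 106, 126 and 108 CPM in control and at 86.9, 88.5 and 113 CPM in Gli3R replicates. Its groups overlapped through litter 3, and its log2 fold change was -0.24 ± 0.12 (edgeR quasi-likelihood test, adjusted p = 0.800), with -0.15 without control replicate 2 and -0.37 without Gli3R replicate 3. Of its 50-base words, 27.0% also lie in Gm5514, which had 0.704 times its counts. The lactate exporters Slc16a1 (-0.14 ± 0.12) and Slc16a3 (0.09 ± 0.16) overlapped between groups.

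The switch genes also overlapped. Pyruvate dehydrogenase kinases inhibit pyruvate dehydrogenase, and the log2 fold change was 0.06 ± 0.18 for Pdk1, a HIF target, and -0.12 ± 0.11 for Pdk3. The bifunctional enzymes Pfkfb3 and Pfkfb4, which make the activator of phosphofructokinase, stood at 0.09 ± 0.24 and 0.42 ± 0.34; both were higher with Gli3R in all 3 litters, from 396 and 159 counts.

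Among the genes that sense oxygen, the transcript of Hif1a, which encodes a HIF alpha subunit, was even across libraries. The protein was not measured. Hif1a ran from 114 to 132 CPM in control and from 120.0 to 127 CPM in Gli3R libraries (95% interval of the log2 fold change -0.23 to 0.16). Egln1 (112405), the main hydroxylase that marks HIF for destruction in oxygen, stood at 13.0, 15.0 and 17.2 CPM in control and at 16.7, 20.5 and 25.0 CPM in Gli3R replicates 1, 2 and 3. It was higher with Gli3R in each litter, by 0.36, 0.45 and 0.54 on the log2 scale, though the lowest Gli3R library lay just under the highest control. Its log2 fold change of 0.44 ± 0.18 did not pass (edgeR quasi-likelihood test, adjusted p = 0.701; 0.303 with the block), and it was 0.29 without Gli3R replicate 3. Egln3, its inducible relative, stood at 0.09 ± 0.18 and went against the other litters in litter 3.

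Ndrg1 (17988), a stress and differentiation gene raised by hypoxia, differed most among the members. It measured 3.89, 6.53 and 10.3 CPM in control libraries of litters 1, 2 and 3, against 11.4, 15.0 and 26.0 CPM with Gli3R. All Gli3R libraries lay above all control libraries, and within litters 1, 2 and 3 the log2 difference was 1.55, 1.20 and 1.34. The means were 6.89 ± 3.20 and 17.5 ± 7.63 CPM (SD, n = 3), a log2 fold change of 1.29 ± 0.37 (SE; 2.45-fold). It did not pass without litter in the fit (edgeR quasi-likelihood test, adjusted p = 0.405) and rose with the litter block (1.34 ± 0.16, adjusted p = 0.0325). It also passed in DESeq2 (0.0149) and without the filter on low counts (0.0255). With the block, it passed without litter 1 (8.03e-04) and not without litter 2 (0.176) or litter 3 (0.216), each with 2 litters left. Over all alternatives its log2 fold change ran from 0.90 to 1.67 and its adjusted p from 8.03e-04 to 0.976. The spread between litters was 2.64 times in control and 2.28 times in Gli3R libraries, close to the size of the difference between groups.

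Vegfa (22339), the HIF target that guides blood vessel growth, stood in the opposite direction. It stood at 17.4, 28.4 and 29.5 CPM in control and at 10.9, 20.2 and 19.1 CPM in Gli3R replicates 1, 2 and 3. The groups overlapped through control replicate 1, and within each litter the Gli3R library was lower, by -0.67, -0.49 and -0.62 on the log2 scale. The log2 fold change of -0.62 ± 0.26 did not pass (edgeR quasi-likelihood test, adjusted p = 0.710; 0.136 with the block), and it was -0.36 without Gli3R replicate 1. Bnip3 (12176), a mitophagy gene, stood at 139, 152 and 162 CPM in control and at 139, 181 and 197 CPM in Gli3R replicates, with a log2 fold change of 0.19 ± 0.13 (edgeR quasi-likelihood test, adjusted p = 0.925) that ran from 0.09 without Gli3R replicate 3 to 0.33 without Gli3R replicate 1. HIF response genes of these cells stood on either side of 0, and no direction was common to the 12 genes: 5 were higher and 1 lower in all 3 litters, and 6 were mixed.

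None of the other HIF targets passed. Ankrd37 (0.26 ± 0.21) and Ddit4 (0.21 ± 0.31), the latter an inhibitor of mTOR signalling, were higher in every litter, Ddit4 from 95 counts. Mxi1, an antagonist of Myc, stood at 0.05 ± 0.22 and Kdm3a, a histone demethylase, at -0.07 ± 0.14. P4ha1 and P4ha2, which hydroxylate collagen, stood at 0.09 ± 0.25 and -0.09 ± 0.20, and P4ha1 ran from 61.5 to 118 CPM within the control group alone.

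The levels of many members followed the litter. Litter 1 was the lowest of the 3 litters in the control group and in the Gli3R group alike for 17 of the 36 members, against 16.6% of all genes tested. The 17 were Slc2a1, Gpi1, Pfkl, Aldoa, Tpi1, Pgk1, Eno1, Ldhb, Slc16a1, Pfkfb3, Egln1, Vegfa, Bnip3, Ndrg1, Ankrd37, P4ha1 and P4ha2. In a test of the litter term, chosen after this was seen, 0 of the 36 passed (edgeR quasi-likelihood test on 2 degrees of freedom, lowest adjusted p = 0.155, for Slc2a1), where 0.00839% of all genes did. At an unadjusted p under 0.05 there were 9 members, Slc2a1, P4ha1, Ndrg1, Vegfa, Pfkl, Slc2a3, Bnip3, Egln1 and Slc16a1, against 8.68% of all genes. Slc2a1 was higher than litter 1 by 0.57 in litter 2 and 0.80 in litter 3 on the log2 scale, and P4ha1 by 0.62 and 0.88.

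**Figure D4:**
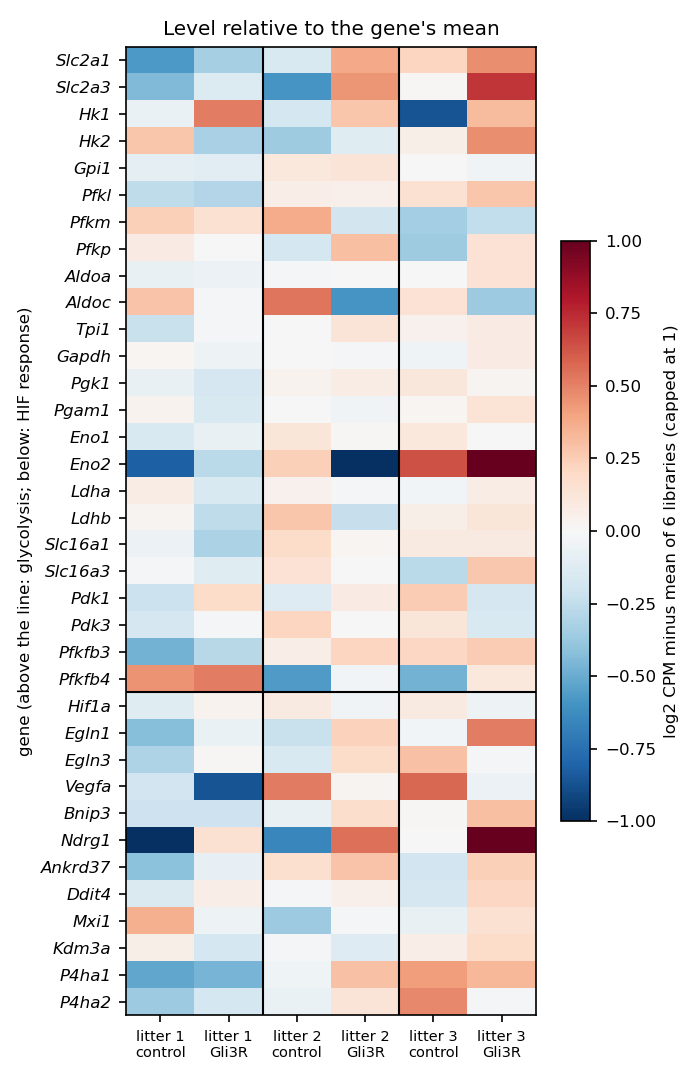
Log2 CPM of each gene minus its mean over the 6 libraries, with libraries ordered by litter (red higher, blue lower, capped at 1; glycolysis above the line, HIF response below it). Slc2a1, P4ha1, Pfkl and Bnip3 are blue in both libraries of litter 1, and Ndrg1 is redder in the Gli3R than in the control library of each litter.

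Litter 1 held the shallowest library, control replicate 1, and the deepest, Gli3R replicate 1. Other lists moved with the litters too. Genes of the response to dissociation and heat shock (9 of 10 tested) summed to 191 and 201 CPM in the control and Gli3R libraries of litter 1. In the other 4 libraries they summed to 282 to 323 CPM. Most of these sums came from Dnajb1 and Ier2, and Junb went the other way, highest in litter 1 in both groups (11.1 CPM in control, 9.07 CPM in Gli3R). Markers of nascent and posterior mesoderm (8 of 8 tested) summed to 133, 69.1 and 43.9 CPM in control replicates 1, 2 and 3 and to 43.2, 31.1 and 26.6 CPM in the Gli3R replicates, with litter 1 highest in each group. The part of these in the litter pattern of the members was not tested.

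Among all 11913 genes tested, an unadjusted p under 0.05 was found for 392 on the lower side and 425 on the higher side. The litter block called 18 of all genes tested lower and 9 higher, as background to the counts below. For 3 marker lists the sums did not overlap between the groups. The nascent and posterior mesoderm list was lower with Gli3R (43.9 to 133 CPM in control against 26.6 to 43.2 CPM), with 5 of 8 genes lower at an unadjusted p under 0.05 and 1, the mesoderm factor T (brachyury), called lower with the litter block. Cardiac and lateral mesoderm markers (6 of 8 tested) summed to 338 to 448 CPM in control and 458 to 633 CPM in Gli3R libraries, most of it from Hand1, Bmp4 and Msx1. In that list 3 genes were higher and 1 lower at an unadjusted p under 0.05, and Bmp4 and Msx1 were called higher with the block, while Foxf1 stood lower without overlap (log2 fold change -0.60 ± 0.17, edgeR quasi-likelihood test, adjusted p = 0.374). Endothelial markers (6 of 8 tested) summed to 124 to 155 against 196 to 215 CPM, with 4 genes higher and 0 lower at an unadjusted p under 0.05. Etv2, Tal1 and Fli1 stood higher without overlap, as did 5.62% of all genes tested, while Kdr, Pecam1 and Tek overlapped between the groups. The sums of the other lists overlapped between the groups. Epiblast and ectoderm markers (7 of 9 tested) summed to 148 to 268 against 140.0 to 155 CPM, most of it Dnmt3b. In that list 4 genes were lower and 0 higher at an unadjusted p under 0.05, and 1 was called lower with the litter block. Pou5f1, Epcam, Cdh1 and Hesx1 stood lower without overlap, as did 6.33% of all genes tested. Primitive erythroid markers, whose cells carry much GLUT1, summed to 206 to 459 against 217 to 829 CPM. Endoderm markers summed to 276 to 506 against 436 to 552 CPM, most of it Apoe. Of the trophoblast list, Elf5 had no count in any library, Esrrb and Bmp8b stood at 0.232 CPM or lower, and Krt8 gave most of the sum of 318 to 563 against 368 to 606 CPM. The part of these lists in the differences of the members was not tested.

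Neighbouring pathways were read from lists set by general knowledge, with earlier results of these data known, and 0 of their genes passed in either fit. Of 31 other glycolysis genes, 16 were tested, with 3 at an unadjusted p under 0.05, all higher with Gli3R. They were Pgm2, a phosphoglucomutase (40.5 ± 5.11 against 57.2 ± 11.2 CPM; SD, n = 3), the muscle enolase gene Eno3 (37.8 ± 11.5 against 54.5 ± 2.76 CPM) and Pdp1, a phosphatase that activates pyruvate dehydrogenase (3.93 ± 0.814 against 5.88 ± 0.689 CPM); Mpc2, a mitochondrial pyruvate carrier gene, stood at 0.24 ± 0.14 on the log2 scale. For Pgm2, Eno3 and Pdp1 each Gli3R library lay above each control library, which is 18.8% of the 16, beside 5.62% of all genes tested; an unadjusted p under 0.05 in either direction was reached by 6.86% of all genes.

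Of 38 further HIF pathway and target genes, 31 were tested, with a median log2 fold change of -0.033. In all 3 litters, 3 of them (9.68%) were higher with Gli3R and 7 (22.6%) lower, against 15.0% and 15.3% of all genes tested. Stc2, a secreted stanniocalcin, stood at 1.11 to 1.39 CPM in control and 2.43 to 2.60 CPM in Gli3R libraries, and Bnip3l, a relative of Bnip3, at 214 to 228 against 244 to 258 CPM. Hif1an, a hydroxylase that dampens HIF activity, ran from 13.4 to 15.9 CPM in control and from 9.30 to 12.4 CPM in Gli3R libraries, and Tfrc, the transferrin receptor gene, from 68.1 to 77.3 against 52.1 to 65.9 CPM. These 4 had the lowest p of the list and did not overlap between groups, and 3 of them (2 higher, 1 lower) stood at an unadjusted p under 0.05. The share of the list without overlap was 6.45% higher and 6.45% lower, close to the 5.62% and 6.33% of all genes tested. By edgeR's quasi-likelihood test the adjusted p was 0.450 for Stc2 and 0.730 for Tfrc.

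No gene passed among the mitochondrial genes that take up pyruvate where glycolysis ends. All 24 genes of pyruvate dehydrogenase and the tricarboxylic acid cycle were tested, their log2 fold changes ran from -0.65 (Pcx) to 0.03, and 22 of the 24 lay within 0.2 of 0, as did 8057 of all 11913 genes tested. None was higher with Gli3R in all 3 litters, against 15.0% of all genes, and 6 (25.0%) were lower in all 3, against 15.3%. Pdha1 stood at 160.0 to 169 CPM in control and 147 to 151 CPM in Gli3R libraries, Sdhd at 332 to 356 against 290.0 to 338 CPM and Idh3a at 224 to 233 against 186 to 224 CPM. Of 7 pentose phosphate genes, 6 were tested, and all 6 lay within 0.2 of 0, among them Tkt (-0.10 ± 0.08), Pgls (0.10 ± 0.11), Pgd (0.07 ± 0.11) and G6pdx (0.05 ± 0.10). The integrated stress response can also raise Ddit4. Of its 13 genes, all tested, Psat1 (-0.26 ± 0.11), Chac1 (0.86 ± 0.45), Mthfd2 (-0.19 ± 0.10) and Slc7a11 (0.15 ± 0.10) had the lowest p. Only Psat1 stood at an unadjusted p under 0.05, as did 6.86% of all genes tested. Without overlap, 3 of the 13 (23.1%) were lower with Gli3R and 0 higher, against 6.33% and 5.62% of all genes tested.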

How the data were processed

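RNA of 1000 sorted cells per library was read in 3 control and 3 Gli3R libraries. The authors deposited raw counts per gene, named for featureCounts; TopHat2 2.0.14, Subread 1.4.6, FastQC, edgeR and mm9 appear, with no role, in the submitters' processing notes. No source used here gives the annotation, the strand setting or the handling of reads with several matches. Copies and overlapping genes are therefore uncertain, and reads without molecular tags make limits on counts cover counting error only.

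Symbols turned into dates (27) were restored by Entrez gene ID. Counts were fitted in R 4.3.3 with the quasi-likelihood test of edgeR 4.0.16, two-sided, after filterByExpr (minimum count 10; 11913 genes tested) and TMM scaling, with p-values adjusted over all genes tested and a threshold of 0.05. Scripts were tested on simulated data. The labels give the litter of each library; the correlation of same-litter libraries, after taking off group means, was 0.168 (litter 1), 0.187 (litter 2) and 0.0755 (litter 3). Control replicate 3 correlated more with a library of another litter (0.162) than with its own, and Gli3R replicate 3 about equally (0.0744), so the pairing rests on the labels. Litter was a block in a second fit. Whether p-values measure more than the spread of these pools of littermates cannot be told. Alternatives were DESeq2 1.42.0, other scalings and filters, and leaving out each library; leaving out whole litters and the test of the litter term were added after seeing the data. The members and lists were chosen with earlier results of these data known. Named in full are members that passed in either fit, the 10 with the lowest p and the 10 most abundant per kb (longest coding transcript, GENCODE M21); of other lists, the 4 with the lowest p. Promoters are from RefSeq, GRCm38.p6.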

Additional observations from a re-analysis of the deposited data

How the results depend on the processing

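Over the alternatives, 0 members passed except in the following: with the replicate block of litter, 1 (Ndrg1); without the filter on low counts or in DESeq2, 2 (Ndrg1 and Slc2a3); and with the litter block without litter 1, 3 (Ndrg1, Slc2a1 and Slc2a3). Over all genes, where 16 passed, the count was 27 with the litter block, 108 without the filter, 94 in DESeq2, 27 without litter 1, and 221, 3 and 0 with the litter block without litter 1, 2 and 3. Leaving out single libraries gave 0 to 18 genes and 0 members; each library but control replicate 1 brought the count to 9 or fewer, and Gli3R replicate 3 to 0 by edgeR, with 659 genes at an unadjusted p under 0.05. The median of the HIF response members, 0.09 on the log2 scale, ran from 0.037 to 0.199 without single libraries; that of the glycolytic members, 0.02, ran from -0.043 to 0.075. The HIF median was 0.165 without litter 1, and 0.172, 0.024 and 0.166 with the litter block without litters 1, 2 and 3.

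Members near 0 changed sign, none of which passed. With library size alone, Gpi1 stood at 0.001. Without litter 1, Pgam1 stood at 0.049, Ldha at 0.026, Pdk1 at -0.096 and Kdm3a at 0.005. Without single libraries, the log2 fold change ran from -0.231 to 0.189 for Hk2, -0.077 to 0.048 for Gpi1, -0.107 to 0.179 for Pfkl, -0.025 to 0.046 for Gapdh, -0.093 to 0.023 for Pgk1, -0.106 to 0.039 for Pgam1, -0.131 to 0.001 for Eno1, -0.721 to 0.372 for Eno2, -0.106 to 0.005 for Ldha, -0.024 to 0.204 for Slc16a3, -0.019 to 0.217 for Pdk1, -0.066 to 0.256 for Pfkfb3, -0.099 to 0.003 for Hif1a, -0.018 to 0.280 for Egln3, -0.111 to 0.246 for Mxi1, -0.110 to 0.347 for P4ha1 and -0.246 to 0.181 for P4ha2. The other 18 members, among them Ndrg1, Slc2a1, Slc2a3, Egln1, Vegfa and Aldoc, did not turn sign under any alternative run. Among those 18, leaving out 1 library moved the following by over 1.5 times beside Slc2a1, Egln1, Vegfa, Bnip3 and Ldhb: Aldoa (0.0 to 0.103), Tpi1 (0.052 to 0.178), Pfkm (-0.384 to -0.037), Slc16a1 (-0.222 to -0.020), Pdk3 (-0.218 to -0.037), Pfkfb4 (0.219 to 0.762) and Ankrd37 (0.145 to 0.445). The litter block changed no member's call but that of Ndrg1. Apart from fewer samples in the fits that leave some out, the cause of these shifts was not tested. Depth limits Eno2, Ddit4, Pfkfb4 and Hk1, each under 250 counts in all.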
